A study of Mus musculus with 21 samples.

Results

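Reporter-negative mouse CD4 T cells cultured with IL-12 were compared with reporter-negative cells cultured with TGF-b and IL-6, across all genes with detectable transcripts. The comparison used 4 of the 21 libraries of the series, IL-12 GFPneg replicates 2 and 3 and TGFb+IL-6 GFPneg replicates 1 and 2. A gene entered when it had at least 1 TPM (a length-corrected share of a library's transcripts) in at least 2 of these 4 libraries. By that rule 8420 of the 23415 rows of the table entered. The third library of each group was left out because under 7000 genes reached 1 TPM in it, 4109 in IL-12 GFPneg replicate 1 and 190 in TGFb+IL-6 GFPneg replicate 3. In some genes this last library also goes against its culture label. The interferon gamma gene Ifng was at 3285 TPM, the granzyme B gene Gzmb at 2727 TPM and Plac8 at 6647 TPM. Nkg7, Tbx21 and Penk, also high after IL-12, were listed at 0 TPM in it, as were the IL-17 genes Il17a and Il17f. With so few genes detected, a value of 0 there cannot place the library.

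All groups shared one genotype and one source. The mice were heterozygous for a reporter at Il23r (Il23r wt/eGFP), the gene of the IL-23 receptor, in which an IRES places eGFP behind a receptor allele that is not functional. GFPneg cells were thus those with no visible reporter signal at the sort, and each retained a single working Il23r copy. Naive cells (CD4+, CD44low, CD25-) from spleen and lymph nodes were stimulated for 5 days on plate-bound antibodies to CD3 and CD28, either with IL-12 at 20 ng/ml or with TGF-b at 2 ng/ml and IL-6 at 25 ng/ml. The RNA was sequenced with SMART-Seq2, a full-length protocol for small cell numbers. A culture without added cytokine was not analysed here, so a gain in one culture and a loss in the other cannot be told apart. Likewise, TGF-b and IL-6 were added together, and their parts cannot be told apart within this comparison.

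As background, naive CD4 T cells take on an effector type according to the cytokines present when their receptor is engaged. IL-12 acts through its receptor and STAT4 and favours Th1 cells, whose master factor T-bet (Tbx21) and product interferon gamma (Ifng) are the usual marks of the lineage. IL-6 acts through STAT3 and, together with TGF-b, favours Th17 cells, which are marked by IL-17A, IL-17F and the chemokine receptor CCR6. TGF-b also supports regulatory T cells and, with other cytokines, cells that make IL-9.

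The sequences of a few start regions are shown first, for interferon gamma, interferon-induced and Th17 genes, which the results below return to. Each runs 5′ to 3′ from 250 bases before to 50 bases after a RefSeq start site (GRCm38.p6), in lower case with motif matches in capitals. Start regions of Ifng, of the interferon-induced genes Igtp, Gbp2 and Irf1, and of the Th17 genes Il17f, Il17a and Ccl20 follow.
Ifng, chr10:118440796-118441095, plus strand: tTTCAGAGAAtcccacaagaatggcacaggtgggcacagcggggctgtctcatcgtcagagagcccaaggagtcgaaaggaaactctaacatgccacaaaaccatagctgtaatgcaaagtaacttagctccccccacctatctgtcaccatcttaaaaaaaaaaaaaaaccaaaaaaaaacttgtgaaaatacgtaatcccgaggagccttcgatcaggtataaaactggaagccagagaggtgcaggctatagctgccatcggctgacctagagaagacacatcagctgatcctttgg
Igtp, chr11:58199306-58199605, plus strand: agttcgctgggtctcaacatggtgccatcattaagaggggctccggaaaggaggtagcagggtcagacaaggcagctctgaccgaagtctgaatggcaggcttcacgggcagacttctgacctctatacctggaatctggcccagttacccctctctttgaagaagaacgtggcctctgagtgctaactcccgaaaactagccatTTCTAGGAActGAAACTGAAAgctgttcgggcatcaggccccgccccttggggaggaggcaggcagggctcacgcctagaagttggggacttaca
Gbp2, chr3:142620413-142620712, plus strand: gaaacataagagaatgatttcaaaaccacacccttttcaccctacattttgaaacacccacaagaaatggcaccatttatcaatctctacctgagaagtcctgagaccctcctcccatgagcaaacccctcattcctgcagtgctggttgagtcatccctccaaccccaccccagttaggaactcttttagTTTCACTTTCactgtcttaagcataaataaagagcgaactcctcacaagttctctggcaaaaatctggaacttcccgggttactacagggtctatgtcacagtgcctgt
Irf1, chr11:53769764-53770063, plus strand: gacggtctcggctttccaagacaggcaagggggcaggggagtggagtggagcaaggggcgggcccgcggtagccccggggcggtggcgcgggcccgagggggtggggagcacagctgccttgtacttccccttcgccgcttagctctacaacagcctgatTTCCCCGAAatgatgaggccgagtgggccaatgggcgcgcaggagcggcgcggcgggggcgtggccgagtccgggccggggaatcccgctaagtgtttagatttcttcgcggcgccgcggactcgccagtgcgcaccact
Il17f, chr1:20784221-20784520, minus strand: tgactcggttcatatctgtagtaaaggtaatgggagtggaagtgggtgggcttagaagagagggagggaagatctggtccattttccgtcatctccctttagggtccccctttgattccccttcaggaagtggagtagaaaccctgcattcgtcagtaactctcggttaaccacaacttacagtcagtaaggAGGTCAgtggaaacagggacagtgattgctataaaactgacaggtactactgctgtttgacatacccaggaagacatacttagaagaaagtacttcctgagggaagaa
Il17a, chr1:20730655-20730954, plus strand: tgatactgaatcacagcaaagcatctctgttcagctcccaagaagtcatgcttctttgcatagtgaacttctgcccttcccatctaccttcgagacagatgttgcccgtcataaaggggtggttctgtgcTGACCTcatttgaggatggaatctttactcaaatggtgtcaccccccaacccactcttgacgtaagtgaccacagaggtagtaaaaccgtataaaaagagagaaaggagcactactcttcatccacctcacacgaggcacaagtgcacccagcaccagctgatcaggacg
Ccl20, chr1:83116516-83116815, plus strand: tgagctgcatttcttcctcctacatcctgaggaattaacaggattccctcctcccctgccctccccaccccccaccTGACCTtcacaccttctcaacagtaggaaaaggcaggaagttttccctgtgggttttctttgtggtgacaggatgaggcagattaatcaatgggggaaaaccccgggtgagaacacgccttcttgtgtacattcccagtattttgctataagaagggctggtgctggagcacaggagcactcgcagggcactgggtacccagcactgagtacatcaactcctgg
In the first 4 windows the capitals mark TTCNNNGAA, the core of the gamma-activated sequence known from interferon gamma targets, or the core of the interferon-stimulated response element (ISRE core: GAAA, any 2 bases, GAAA), read on both strands. In the last 3 they mark AGGTCA, the half-site known for many nuclear receptors, again on both strands. Each motif was marked in its own set of windows only. The Ifng and Igtp windows also hold AGGTCA, on the other strand and left in lower case. The Igtp window held both interferon motifs, with first bases at -45 and -34 from the start site. Among all 32851 windows of this length, 8.3% held TTCNNNGAA, 3.44% held the ISRE core and 16.3% held AGGTCA. A match is a string of letters and was not tested as a site.

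The 4 libraries had 7522 to 8384 genes at 1 TPM or more, and their depth cannot be read from TPM. The share of transcripts from ribosomal protein genes split by culture, at 33.4% and 33.2% with IL-12 and 44.1% and 44.4% with TGFb+IL-6. So did the share taken by the top 50 genes of a library, at 40.4% and 39.3% with IL-12 and 45.4% and 44.7% with TGFb+IL-6. TPM are shares of a fixed total, and the part of these differences in the results below was not tested beyond the scaling alternatives given. CD4 T cell markers such as Cd4, 111 and 120.4 TPM with IL-12, against 61.9 and 62.2 TPM with TGFb+IL-6, were abundant in all 4 libraries. Markers of other cells were low. B cell markers summed to 5.66 and 5.13 TPM with IL-12 and 0.91 and 5 TPM with TGFb+IL-6, with 6 of 10 at 0 throughout, and myeloid markers to 4.95 and 4.96 TPM with IL-12 and 4.77 and 3.67 TPM with TGFb+IL-6, with 8 of 13 at 0. CD8 T cell markers (2 genes) summed to 6.73 and 5.37 TPM with IL-12 and 9.31 and 6.15 TPM with TGFb+IL-6, and 5 of 7 gamma-delta and innate-like markers were at 0 in all 4 libraries. Erythroid and neutrophil markers summed to 26.5 and 48.2 TPM with IL-12 and 18.8 and 29.1 TPM with TGFb+IL-6, all of it Ly6g and Csf3r, with 12 of 14 at 0. Il23r itself stood at 1.5 and 0 TPM with IL-12, against 0.87 and 0.73 TPM with TGFb+IL-6, and was too low to test. Whether replicates are separate mice or cultures is not in the labels. The p-values below thus measure the spread between libraries of a group, pooled over the 16 libraries of the fit, and that spread may be technical.

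At an adjusted p under 0.05 (limma, 8420 genes), 1609 genes (19.1%) were higher and 480 (5.7%) lower in IL-12 cells than in TGFb+IL-6 cells. The median log2 change over all genes was 0.367, so the bulk of the transcriptome sat above 0 on the TPM scale. After median-ratio scaling, which sets that median to 0.01, 785 genes (9.32%) were higher and 901 (10.7%) lower. All of the 785 and all of the 480 were called under both scalings. With ribosomal protein genes taken out of the total, 993 were higher and 603 lower, with a median log2 change of 0.17. The counts also moved with single libraries. Calls of higher genes numbered 1120 without TGFb+IL-6 replicate 1, 877 without IL-12 replicate 2, 887 without IL-12 replicate 3 and 695 without TGFb+IL-6 replicate 2. Calls of lower genes without the same libraries numbered 289, 368, 295 and 273. Below, a gene is said to have risen or fallen in IL-12 cells when it passed the test on the TPM as deposited. Where median-ratio scaling took the call away, that is stated. The counts of each list are to be read beside the 19.1% and 5.7% of all genes, and its median beside 0.367. Counts in brackets with median-ratio scaling are to be read beside 9.32% and 10.7%. A list near these shares does not differ from all genes in its counts. The smallest two-sided p of an exact test with 2 libraries a side is 0.333, so every p comes from the fit across genes. In bulk RNA, a smaller share of cells that express a gene and less RNA per cell cannot be told apart.

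**Figure D1:**
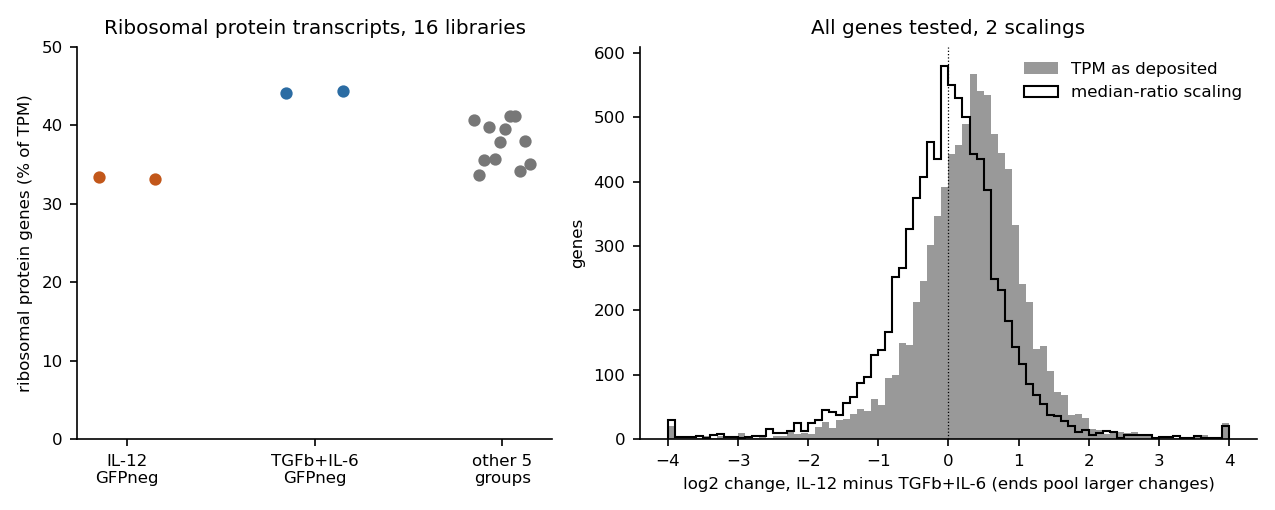
Left, ribosomal protein genes as a percentage of TPM in the 16 libraries of the fit, 1 point per library. Right, number of genes by log2 change, IL-12 minus TGFb+IL-6, for TPM as deposited (grey) and after median-ratio scaling (line). The IL-12 libraries lie at 33.4% and 33.2% and the TGFb+IL-6 libraries at 44.1% and 44.4%, and the grey distribution has its median at 0.367.

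The Th1 program was higher in IL-12 cells. Of 16 tested members, 11 rose and 1 fell (10 and 1 with median-ratio scaling), with a median log2 change of 1.58, while 19.1% of all genes rose and 5.7% fell. Between 8 and 9 rose when any single library was left out. Ifng, which encodes interferon gamma and lies on chromosome 10 from 118441046 to 118445892 (GRCm38, GENCODE M21), was at 1121 and 1474 TPM with IL-12, against 0 TPM in both TGFb+IL-6 libraries (adjusted p = 2.47e-11). Ifng was therefore abundant in both IL-12 libraries, and no fold can be given against a group at 0. Tbx21, on chromosome 11 from 97098071 to 97115331, was at 49.7 and 79.4 TPM with IL-12, against 0.16 and 0 TPM with TGFb+IL-6, a log2 change of 5.89 ± 0.58 (SE, adjusted p = 2.52e-06). The T-bet transcript was near 0 in both TGFb+IL-6 libraries. Receptor chains went the same way. Il12rb2, the inducible chain of the IL-12 receptor, was at 114 and 131 TPM with IL-12, against 4.74 and 9.82 TPM with TGFb+IL-6, and Il18r1, a chain of the IL-18 receptor, at 10.5 and 10.7 TPM with IL-12, against 1.74 and 0.54 TPM with TGFb+IL-6. Their log2 changes were 3.96 ± 0.28 (adjusted p = 6.81e-08) and 2.50 ± 0.36 (adjusted p = 1.13e-04). The constitutive chain Il12rb1 was at 41.2 and 27.6 TPM with IL-12, against 34.9 and 31.4 TPM with TGFb+IL-6, a log2 change of 0.03 ± 0.29 (adjusted p = 0.956). Stat4, the STAT factor of the IL-12 receptor, was at 25.6 and 22.6 TPM with IL-12, against 6.11 and 4.41 TPM with TGFb+IL-6, and rose by 2.02 ± 0.30 (adjusted p = 1.78e-04). The Th1 homing receptor gene Cxcr3 was at 9.29 and 9.28 TPM with IL-12, against 1.06 and 3.26 TPM with TGFb+IL-6, a log2 change of 1.80 ± 0.36 (adjusted p = 0.00236). Il18rap, Ly6c2 and Tnf also rose. Il18rap lost its call without TGFb+IL-6 replicate 1 or IL-12 replicate 2, Ly6c2 without TGFb+IL-6 replicate 1 or IL-12 replicate 3, and Tnf without TGFb+IL-6 replicate 2 or IL-12 replicate 3. Runx3, a partner of T-bet, was at 7.87 and 10 TPM with IL-12, against 4 and 4.45 TPM with TGFb+IL-6, and lost its call with median-ratio scaling (adjusted p = 0.184) and in all 4 fits with a library left out. Lta, which encodes lymphotoxin alpha, was the member that fell, at 489 and 835 TPM with IL-12, against 1153 and 1159 TPM with TGFb+IL-6 (log2 change -0.85 ± 0.26, adjusted p = 0.0254), a call that held in 1 of the 4 fits with a library left out, the one without IL-12 replicate 3. Bhlhe40 and Cd226 were not called, with log2 changes of 0.35 and 0.07. Eomes, a relative of T-bet, was at 0.63 and 0 TPM with IL-12, against 0 TPM in both TGFb+IL-6 libraries, and was not tested.

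**Figure D2:**
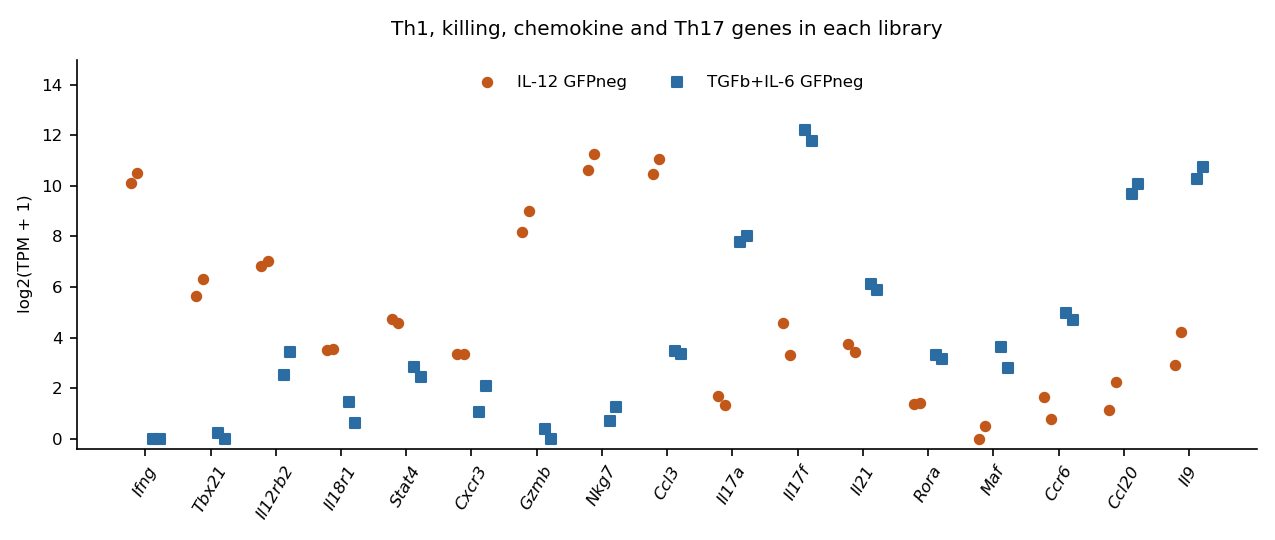
Each point is 1 library, with log2(TPM + 1) on the vertical axis and genes along the horizontal axis. IL-12 GFPneg libraries are circles and TGFb+IL-6 GFPneg libraries squares. The circles lie above the squares from Ifng to Ccl3, and below them from Il17a to Il9.

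Genes of cytotoxic granules were among the largest rises. All 11 tested members of the cytotoxic list were called, 9 higher and 2 lower (7 and 2 with median-ratio scaling), with a median log2 change of 1.67. Nkg7, a granule membrane protein of killer lymphocytes, was at 1574 and 2477 TPM with IL-12, against 0.61 and 1.35 TPM with TGFb+IL-6, a log2 change of 9.99 ± 0.51 (adjusted p = 1.24e-09). Gzmb, the protease granzyme B, was at 290.4 and 509 TPM with IL-12, against 0.31 and 0 TPM with TGFb+IL-6, a log2 change of 8.40 ± 0.43 (adjusted p = 1.33e-09). Both transcripts were near 0 in the TGFb+IL-6 libraries. Perforin (Prf1), the pore former that granzymes are delivered with, was low, at 0.39 and 0.78 TPM with IL-12, against 0.2 and 0 TPM with TGFb+IL-6, and was not tested. Serpinb9 and Serpinb6b, which encode inhibitors of granule proteases, stood out as well. Serpinb9 was at 189 and 156 TPM with IL-12, against 0.24 and 0.65 TPM with TGFb+IL-6, and Serpinb6b at 383 and 316 TPM with IL-12, against 5.2 and 3.27 TPM with TGFb+IL-6, rises of 6.92 ± 0.26 and 6.08 ± 0.24 on the log2 scale. Serpin genes of this group are close copies, and reads may have been divided between them. The cysteine protease inhibitor Cst7 rose by 1.65 ± 0.19, with 130.1 and 137 TPM with IL-12, against 42.6 and 41.3 TPM with TGFb+IL-6. The death ligand gene Fasl was low, at 2.15 and 4.61 TPM with IL-12, against 0 and 0.74 TPM with TGFb+IL-6, and rose by 1.67 ± 0.33. The 2 that fell were Klrd1, which encodes CD94, at 0 TPM in both IL-12 libraries, against 11.7 and 8.11 TPM with TGFb+IL-6, and the cathepsin gene Ctsw, at 5.29 and 5.87 TPM with IL-12, against 59.3 and 41.4 TPM with TGFb+IL-6. Klrc1, the partner chain of CD94 and a marker of natural killer cells, also fell, at 0 and 1.29 TPM with IL-12, against 9.34 and 8.77 TPM with TGFb+IL-6 (log2 change -2.73 ± 0.44, adjusted p = 3.18e-04). The natural killer marker list summed to 0.39 and 1.29 TPM with IL-12 and 9.97 and 9.35 TPM with TGFb+IL-6. Nearly all of it was Klrc1, except in IL-12 replicate 2, where the 0.39 TPM was Klri2. Of its 9 genes, 5 were at 0 in all 4 libraries, among them the defining markers Ncr1 and Klrb1c. Markers at 0 throughout cannot rank the libraries, so the difference in this list is mostly that of Klrc1.

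Chemokine genes split between the cultures. Of 10 tested ligand genes, 7 rose and 2 fell, under both scalings, with a median log2 change of 2.19. Ccl3 and Ccl4, which attract T cells and monocytes, rose most. Ccl3 was at 1422 and 2119 TPM with IL-12, against 10.1 and 9.15 TPM with TGFb+IL-6 (log2 change 7.36 ± 0.51, adjusted p = 5.25e-08). Ccl4 was at 1327 and 2093 TPM with IL-12, against 48.9 and 36.9 TPM with TGFb+IL-6 (log2 change 5.26 ± 0.35, adjusted p = 2.97e-08). Ccl5, a ligand of the same family, was at 270.1 and 182 TPM with IL-12, against 11 and 4.95 TPM with TGFb+IL-6, and rose by 4.72 ± 0.35. Ccl1 was at 16.8 and 7.26 TPM with IL-12, against 0 TPM in both TGFb+IL-6 libraries, and Xcl1, which encodes lymphotactin, at 2.43 and 7.33 TPM with IL-12, against 0 TPM in both TGFb+IL-6 libraries. The 2 ligand genes that fell were Ccl20 and Cxcl3. Ccl20, the ligand of CCR6, was at 1.22 and 3.68 TPM with IL-12, against 813 and 1068 TPM with TGFb+IL-6, a log2 change of -8.18 ± 0.76 (adjusted p = 1.43e-06). Cxcl3, a neutrophil attractant, was at 0 TPM in both IL-12 libraries, against 6.84 and 2.04 TPM with TGFb+IL-6, and lost its call without TGFb+IL-6 replicate 1. The receptor gene Ccr6 was at 2.13 and 0.71 TPM with IL-12, against 30.3 and 24.6 TPM with TGFb+IL-6, a log2 change of -3.61 ± 0.32 (adjusted p = 7.25e-07). Ccl20 and the gene of its receptor were thus both higher in the TGFb+IL-6 libraries.

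Interferon gamma is known to induce the factors IRF1 and IRF8 and a large set of GTPases that act against pathogens inside cells. Of 21 tested genes of this pathway, 16 rose and 1 fell, with a median log2 change of 2.55. The 16 rose under both scalings, and 14 to 15 rose with any single library left out. Irf1 was at 64.8 and 55.4 TPM with IL-12, against 8.72 and 10.1 TPM with TGFb+IL-6, a log2 change of 2.55 ± 0.31 (adjusted p = 2.29e-05), and Irf8 at 278 and 419 TPM with IL-12, against 19.9 and 19.7 TPM with TGFb+IL-6, a log2 change of 4.04 ± 0.44 (adjusted p = 6.84e-06). The GTPase gene Igtp was at 602 and 542 TPM with IL-12, against 47.1 and 66.8 TPM with TGFb+IL-6 (log2 change 3.33 ± 0.24, adjusted p = 7.95e-08). Gbp2 was at 192 and 175 TPM with IL-12, against 29 and 31.3 TPM with TGFb+IL-6, and Gbp6 at 40.9 and 23.2 TPM with IL-12, against 0.27 and 1 TPM with TGFb+IL-6. Their log2 changes were 2.57 ± 0.25 and 4.32 ± 0.32, and that of Gbp4 was 3.86 ± 0.32. Guanylate-binding protein genes are close copies of each other, and reads may have been divided between them. The receptor chains of interferon gamma did not rise. Ifngr2, the signalling chain, was at 3.38 and 1.17 TPM with IL-12, against 24.8 and 21.7 TPM with TGFb+IL-6 (log2 change -2.97 ± 0.31, adjusted p = 5.25e-06). Ifngr1, the binding chain, was at 38.2 and 42 TPM with IL-12, against 63.1 and 75.6 TPM with TGFb+IL-6 (adjusted p = 0.077, and 0.0185 with median-ratio scaling).

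Start regions were at hand for 14 of the 21 genes of the interferon gamma list. TTCNNNGAA occurred in 8 (57.1%) and the ISRE core in 9 (64.3%), beside 8.3% and 3.44% of all windows. Of the 10 with a window that rose, 7 held the first motif and 8 the second. In the windows printed above, Gbp2 holds the second motif at -59, Igtp holds both, and Irf1 holds TTCCCCGAA at -90. In the Ifng window TTCAGAGAA lay at -249, and no AGGTGTGA, a T-box motif that 1.28% of windows hold, was found. These genes are known targets of interferon gamma, and the motif counts describe the list, which was chosen for that.

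Genes known mainly for type I interferon moved less. Of 21 tested, 11 rose and 0 fell (9 and 1 with median-ratio scaling), with a median log2 change of 1.02, and 10 had no call. Without IL-12 replicate 2, fewer rose and the list was not free of falls. Ifitm3, a membrane protein that restricts viral entry, was at 668 and 414 TPM with IL-12, against 12.3 and 39.7 TPM with TGFb+IL-6, a log2 change of 4.50 ± 0.39 (adjusted p = 5.41e-07). Usp18, which limits interferon signalling, rose by 2.76 ± 0.30, at 44.4 and 20.8 TPM with IL-12, against 3.1 and 4.25 TPM with TGFb+IL-6. Ifit1, a textbook type I target, was low, at 2.98 and 3.86 TPM with IL-12, against 0.46 and 0 TPM with TGFb+IL-6, and rose by 1.86 ± 0.35. Genes of MHC class I and its peptide supply rose in number, 15 of 22 with 0 falling, but their median log2 change of 1.08 became 0.65 after median-ratio scaling, and 7 kept the call. The 7 included the peptide transporter genes Tap1 and Tap2. Tap1 was at 212 and 179 TPM with IL-12, against 52.4 and 64 TPM with TGFb+IL-6, and Tap2 at 105 and 149 TPM with IL-12, against 35.3 and 28.6 TPM with TGFb+IL-6, with log2 changes of 1.73 ± 0.28 and 1.94 ± 0.29. The chaperone gene Tapbpl rose by 1.98 ± 0.24, and the immunoproteasome subunit gene Psmb9 by 1.48 ± 0.21. H2-K1, which encodes a class I heavy chain, was at 5934 and 5256 TPM with IL-12, against 2557 and 3012 TPM with TGFb+IL-6, and lost its call with that scaling (adjusted p = 0.323) and in all 4 fits with a library left out.

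**Figure D3:**
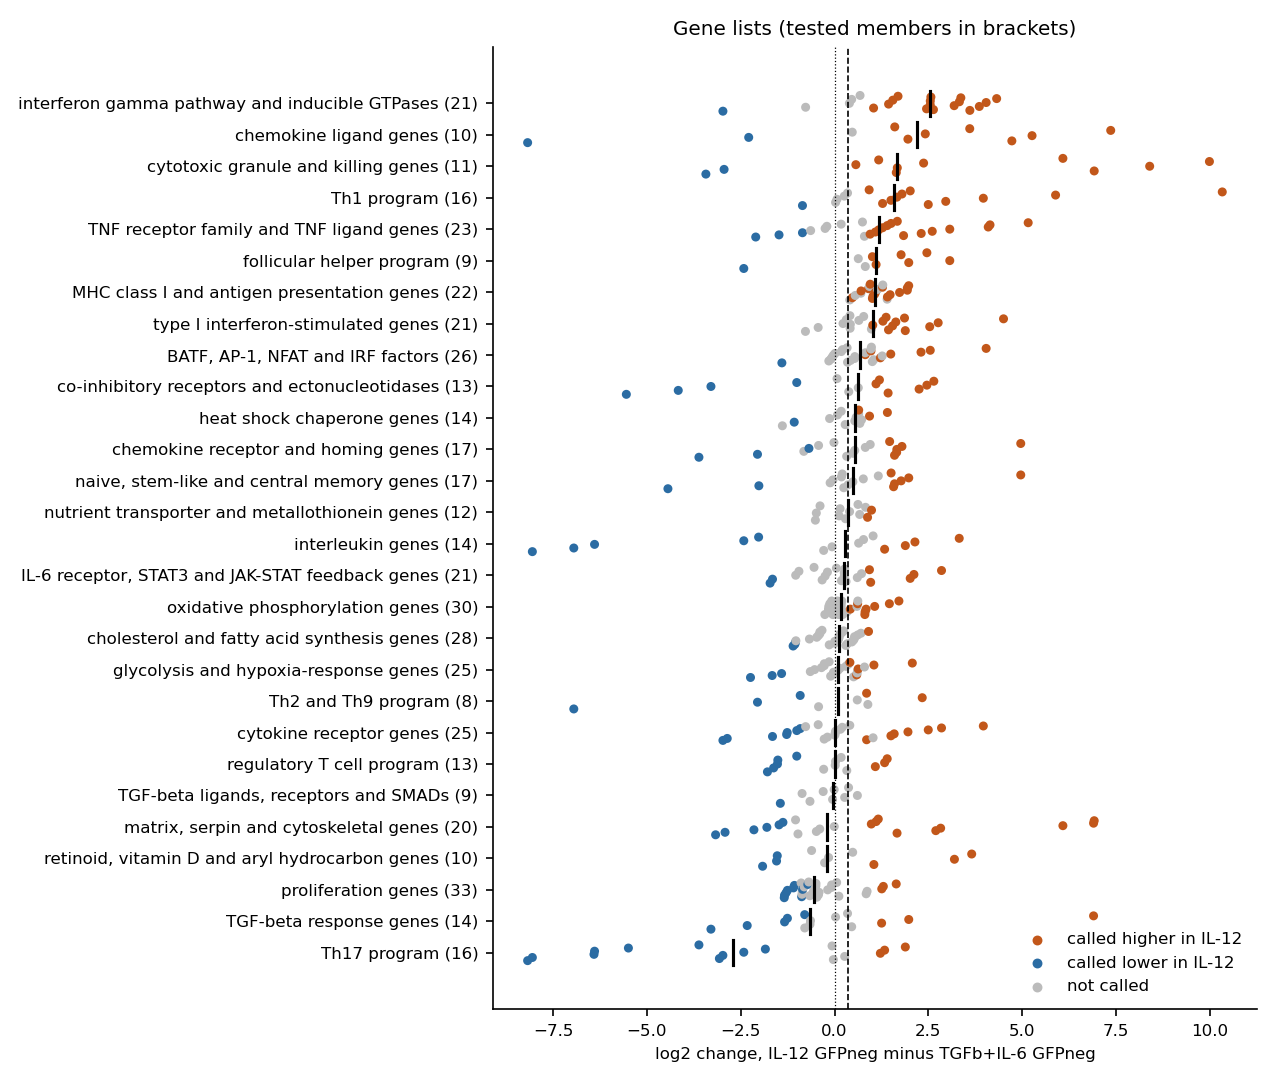
Each row is a gene list and each point a tested member, placed by its log2 change, IL-12 minus TGFb+IL-6. Black bars are list medians and the dashed line the median of all genes, 0.367. Lists run from the interferon gamma pathway, median 2.55, at the top to the Th17 program, median -2.70, at the bottom.

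The Th17 program was lower in IL-12 cells. Of 16 tested members, 10 fell and 3 rose (10 and 1 with median-ratio scaling), with a median log2 change of -2.70, and 10 fell in each of the 4 fits with a library left out. Il17f, on chromosome 1 from 20777146 to 20790617, was at 23.1 and 8.94 TPM with IL-12, against 4744 and 3552 TPM with TGFb+IL-6, a log2 change of -8.05 ± 0.37 (adjusted p = 3.12e-10). Its neighbour Il17a, from 20730905 to 20734496 on the same chromosome, was at 2.25 and 1.5 TPM with IL-12, against 219 and 260.3 TPM with TGFb+IL-6, a log2 change of -6.39 ± 0.40 (adjusted p = 1.47e-08). Il17f was the more abundant of the pair in all 4 libraries. Il21, a cytokine of Th17 and follicular helper cells, was at 12.3 and 9.76 TPM with IL-12, against 68.1 and 58.1 TPM with TGFb+IL-6 (log2 change -2.42 ± 0.39). Transcription factors of the lineage were also lower. Rora, a nuclear receptor of Th17 cells, was at 1.56 and 1.69 TPM with IL-12, against 9.03 and 7.84 TPM with TGFb+IL-6, a log2 change of -1.84 ± 0.29 (adjusted p = 2.84e-04). Maf, a factor that drives Il21 and Il10 in T cells, was at 0 and 0.42 TPM with IL-12, against 11.5 and 6.03 TPM with TGFb+IL-6, a log2 change of -2.98 ± 0.40. Tmem176a and Tmem176b, neighbouring membrane protein genes known from Th17 cells, fell together. Tmem176a was at 1.8 and 0.84 TPM with IL-12, against 114 and 90.1 TPM with TGFb+IL-6, and Tmem176b at 0 TPM in both IL-12 libraries, against 84.1 and 83.9 TPM with TGFb+IL-6. The shared activation factors of the list behaved differently. Batf, needed for Th17 differentiation, rose by 1.22 ± 0.20, at 151 and 142 TPM with IL-12, against 59.2 and 65.5 TPM with TGFb+IL-6. Stat3 and Irf4 were not called, with log2 changes of 0.27 and -0.03. Il22 was at 9.04 and 1.64 TPM with IL-12, against 0 and 0.94 TPM with TGFb+IL-6, and Il10 at 7.9 and 5.26 TPM with IL-12, against 1.69 and 2.26 TPM with TGFb+IL-6. Reads of Il22 may have been divided with its near-identical copy Iltifb. Il22 and Il10 passed the test and lost the call with median-ratio scaling (adjusted p = 0.13 and 0.0523). Neither was called without TGFb+IL-6 replicate 1 or IL-12 replicate 2, and Il22 was also lost without TGFb+IL-6 replicate 2. Csf2, a cytokine of pathogenic Th17 cells, was listed at 0 in all 21 libraries of the series, so its row cannot rank the cultures. The aryl hydrocarbon receptor gene Ahr was at 0.14 and 0 TPM with IL-12, against 0.44 and 0.48 TPM with TGFb+IL-6.

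AGGTCA occurred in 4 of the 8 start regions at hand for Th17 genes that fell (50%), and in 4 of 12 for those tested (33.3%), beside 16.3% of all windows. It also occurred in 3 of 10 for interferon gamma genes that rose (30%) and in 2 of 10 for Th1 genes that rose (20%). These counts are small, and a difference between the lists was not tested. The 3 printed Th17 windows hold it at -58 in Il17f, -120 in Il17a and -174 in Ccl20. The printed Ifng and Igtp windows hold it too, where it was not put in capitals.

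Il9 stood out in the TGFb+IL-6 culture. It was at 6.56 and 17.6 TPM with IL-12, against 1240 and 1723 TPM with TGFb+IL-6, a log2 change of -6.95 ± 1.03 (adjusted p = 1.73e-04). IL-9 is best known from Th9 cells and mast cell growth. In TPM its transcript was more abundant than those of Il17a and Ccl20 in both TGFb+IL-6 libraries, and both IL-12 libraries lay far below them. The Th2 and Th9 list, with Il9 counted in it, split, 2 of 8 tested members rising and 3 falling (1 and 3 with median-ratio scaling), with a median log2 change of 0.09. Gata3, the Th2 master factor, was at 7.21 and 6.72 TPM with IL-12, against 0.75 and 0.42 TPM with TGFb+IL-6 (log2 change 2.34 ± 0.34). Il1rl1, the IL-33 receptor gene, was at 2.79 and 1.52 TPM with IL-12, against 0.85 and 0.58 TPM with TGFb+IL-6, and lost its call with that scaling and without TGFb+IL-6 replicate 1, TGFb+IL-6 replicate 2 or IL-12 replicate 2. Besides Il9, the chemokine receptor gene Ccr4 and the IL-4 receptor gene Il4ra fell. Ccr4 was at 2.39 and 1.12 TPM with IL-12, against 10.8 and 9.52 TPM with TGFb+IL-6, and Il4ra at 63.8 and 53.7 TPM with IL-12, against 115 and 108 TPM with TGFb+IL-6, with log2 changes of -2.05 ± 0.34 and -0.91 ± 0.23. The call of Il4ra held in 1 of the 4 fits with a library left out, the one without IL-12 replicate 2.

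Among genes of TGF-b itself, 0 of 9 tested ligands, receptors and SMADs rose and 1 fell (0 and 2 with median-ratio scaling), with a median log2 change of -0.05. The receptor gene Tgfbr2 was at 1.93 and 2.88 TPM with IL-12, against 3.94 and 2.5 TPM with TGFb+IL-6 (adjusted p = 0.604). The one that fell was Smad3, a transducer of the TGF-b receptor, at 0.15 and 0.59 TPM with IL-12, against 3.85 and 1.79 TPM with TGFb+IL-6, and it lost its call without TGFb+IL-6 replicate 1 or IL-12 replicate 2. The inhibitor gene Smad7, a common readout of TGF-b, was too low to test, at 0.17 and 0 TPM with IL-12, against 0.89 and 0.59 TPM with TGFb+IL-6. Itgae, the CD103 gene, was listed at 0 in all 4 libraries and at 0.08 TPM or less in all 21 of the series, so it cannot rank the cultures. Of 14 tested genes known to respond to TGF-b, 5 fell and 3 rose (7 and 3 with median-ratio scaling), with a median log2 change of -0.65. Nt5e, which encodes the ectonucleotidase CD73, was at 1.29 and 1.28 TPM with IL-12, against 27.2 and 16.8 TPM with TGFb+IL-6, a log2 change of -3.29 ± 0.43 (adjusted p = 5.37e-05). Id1 was at 0 TPM in both IL-12 libraries, against 3.55 and 4.53 TPM with TGFb+IL-6, and the feedback gene Pmepa1 at 2.51 and 2.67 TPM with IL-12, against 10.3 and 6.18 TPM with TGFb+IL-6. Id2 and Klf10 completed the 5. Of these, Nt5e was called in all 4 fits with a library left out. Without TGFb+IL-6 replicate 1, 3 of the list fell, without IL-12 replicate 2 also 3, and without TGFb+IL-6 replicate 2 or IL-12 replicate 3 there were 2. The 3 that rose were Serpine2, Id3 and Nedd9. Serpine2, which encodes the secreted protease inhibitor nexin-1, was at 1051 and 992 TPM with IL-12, against 7.69 and 7.42 TPM with TGFb+IL-6, a log2 change of 6.90 ± 0.32 (adjusted p = 3.59e-10). Id3, an inhibitor of E proteins, was at 60.2 and 50.5 TPM with IL-12, against 13.8 and 12.7 TPM with TGFb+IL-6, a log2 change of 1.98 ± 0.24. Nedd9 was called in 1 of the 4 fits with a library left out, the one without TGFb+IL-6 replicate 1.

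Regulatory T cell genes gave no common direction, 3 of 13 tested rising and 5 falling (2 and 5 with median-ratio scaling), with a median log2 change of 0.02. Foxp3, the regulatory T cell factor, was at 1.04 and 2.2 TPM with IL-12, against 1.77 and 1.27 TPM with TGFb+IL-6 (log2 change 0.03 ± 0.28, adjusted p = 0.957). Ikzf4, which encodes Eos, was at 0.86 and 0.43 TPM with IL-12, against 5.57 and 3.83 TPM with TGFb+IL-6, and the actin-capping gene Capg at 477 and 523 TPM with IL-12, against 1398 and 1475 TPM with TGFb+IL-6, with log2 changes of -1.79 ± 0.31 and -1.52 ± 0.23. Gpr83 fell as well, but not in the fits without IL-12 replicate 2 or TGFb+IL-6 replicate 2. The costimulatory receptor gene Tnfrsf18 (GITR) was at 1127 and 1172 TPM with IL-12, against 393 and 479 TPM with TGFb+IL-6, a log2 change of 1.40 ± 0.17. With single libraries left out 2 to 5 of the list fell, 3 without TGFb+IL-6 replicate 1 and 2 without IL-12 replicate 2 or TGFb+IL-6 replicate 2.

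Co-inhibitory receptors also split by culture. Of 13 tested, 6 rose and 4 fell (5 and 4 with median-ratio scaling), with a median log2 change of 0.63. Lag3, at 37.6 and 40.8 TPM with IL-12, against 6.62 and 4.41 TPM with TGFb+IL-6, rose by 2.65 ± 0.29, Btla by 2.46 ± 0.33 and Tigit by 2.25 ± 0.36. The 4 that fell were Pdpn, Procr, Nt5e and Ctla4, and the call of Ctla4 held in 1 of the 4 fits with a library left out, the one without IL-12 replicate 3. Pdpn, which encodes podoplanin, was at 2.28 and 3.18 TPM with IL-12, against 188 and 158 TPM with TGFb+IL-6, a log2 change of -5.55 ± 0.54 (adjusted p = 2.21e-06). Procr, the protein C receptor gene, was at 2.23 and 1.67 TPM with IL-12, against 44.8 and 59.5 TPM with TGFb+IL-6, a log2 change of -4.16 ± 0.47 (adjusted p = 9.40e-06). Podoplanin and the protein C receptor are known as members of a co-inhibitory set in T cells, and here both were abundant after TGFb+IL-6 and at 1.67 to 3.18 TPM after IL-12.

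Naive and homing genes rose in part. Of 17 tested naive, stem-like and central memory genes, 6 rose and 2 fell (4 and 2 with median-ratio scaling), with a median log2 change of 0.49. Ccr7, a receptor for entry into lymph nodes, was at 2833 and 2628 TPM with IL-12, against 837 and 969.5 TPM with TGFb+IL-6, a log2 change of 1.60 ± 0.22 (adjusted p = 8.20e-05). Tcf7, the factor TCF-1 of stem-like cells, was at 19.2 and 15.8 TPM with IL-12, against 20.2 and 11.4 TPM with TGFb+IL-6, and was not called (log2 change 0.18 ± 0.29, adjusted p = 0.677). Igfbp4, a secreted binder of insulin-like growth factors, was at 6.22 and 7.37 TPM with IL-12, against 226 and 124 TPM with TGFb+IL-6, a log2 change of -4.44 ± 0.29. Txk was the other that fell, at 0 TPM in both IL-12 libraries, against 3.96 and 2.3 TPM with TGFb+IL-6. Of 17 tested chemokine receptor and homing genes, 6 rose and 3 fell under both scalings, with a median log2 change of 0.54. The 3 were Ccr6, Ccr4 and Selplg, and Selplg lost its call in all 4 fits with a library left out.

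Ligands and receptors of the TNF family leaned to the IL-12 culture. Of 23 tested, 14 rose and 3 fell (11 and 4 with median-ratio scaling), with a median log2 change of 1.18. Cd70, the ligand of CD27, was at 62.7 and 53.7 TPM with IL-12, against 1.73 and 0 TPM with TGFb+IL-6, a log2 change of 5.16 ± 0.54 (adjusted p = 4.68e-06). Tnfsf8, the CD30 ligand gene, was at 61.6 and 64.3 TPM with IL-12, against 2.78 and 2.47 TPM with TGFb+IL-6, and Tnfsf4, the OX40 ligand gene, at 39.7 and 40.7 TPM with IL-12, against 2.66 and 0.59 TPM with TGFb+IL-6. They rose by 4.14 ± 0.33 and 4.09 ± 0.45. Cd40lg, the ligand by which helper T cells act on B cells, was at 109 and 121 TPM with IL-12, against 11.8 and 13.9 TPM with TGFb+IL-6, a log2 change of 3.07 ± 0.31. The death receptor Fas rose by 2.60 ± 0.27, at 116 and 114 TPM with IL-12, against 17.8 and 18.5 TPM with TGFb+IL-6. The 3 that fell were Ltb, Lta and the TNF receptor gene Tnfrsf1a. Ltb, which encodes lymphotoxin beta, was at 21.2 and 53 TPM with IL-12, against 176 and 123 TPM with TGFb+IL-6, a log2 change of -2.10 ± 0.34. Lta and Ltb, whose products form a heterotrimer, were abundant in both TGFb+IL-6 libraries. Without TGFb+IL-6 replicate 1 or IL-12 replicate 2, neither Lta nor Tnfrsf1a was called and 1 of the family fell.

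Of 9 tested follicular helper genes 6 rose and 1 fell, with a median log2 change of 1.11, but 3 of the 6 kept the call with median-ratio scaling, and 3 to 4 rose with any single library left out. The 3 were Cd40lg, Icos and Btla, and the one that fell was Il21. Icos was at 91.4 and 94 TPM with IL-12, against 20.2 and 25.7 TPM with TGFb+IL-6, a log2 change of 1.98 ± 0.22. Bcl6, the follicular factor, was at 0 TPM in both IL-12 libraries, against 0.12 and 0.14 TPM with TGFb+IL-6, and was not tested.

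Interleukin genes went both ways. Of 14 tested interleukin genes, 5 fell, namely Il17f, Il9, Il17a, Il21 and Il16, in every fit with a library left out and under both scalings. The median log2 change was 0.29. The 4 that rose were Il3, Il2, Il22 and Il10, of which Il22 and Il10 are described above. Il3 was at 14.7 and 9.03 TPM with IL-12, against 0.57 and 0 TPM with TGFb+IL-6, a log2 change of 3.32 ± 0.46. Il2, the T cell growth factor, was at 994 and 1128 TPM with IL-12, against 287 and 199 TPM with TGFb+IL-6, a log2 change of 2.14 ± 0.52, and lost its call without TGFb+IL-6 replicate 2. The list had 2 that rose without TGFb+IL-6 replicate 1, IL-12 replicate 2 or TGFb+IL-6 replicate 2. Of 25 tested cytokine receptor genes, 7 rose and 7 fell (6 and 10 with median-ratio scaling), with a median log2 change of 0.02. Among all genes 19.1% rose and 5.7% fell (9.32% and 10.7% with that scaling). Il10ra, the IL-10 receptor gene, was at 10.1 and 7.74 TPM with IL-12, against 0.24 and 0.51 TPM with TGFb+IL-6, and Il21r, the IL-21 receptor gene, at 332 and 314 TPM with IL-12, against 79.7 and 85.5 TPM with TGFb+IL-6. They rose by 2.85 ± 0.30 and 1.96 ± 0.24. Il6ra, the receptor through which IL-6 acts, was low, at 0.23 and 0 TPM with IL-12, against 2.61 and 2.37 TPM with TGFb+IL-6, a log2 change of -1.65 ± 0.31 (adjusted p = 0.00124). Il1rn, the antagonist of the IL-1 receptor, was at 0.33 and 0 TPM with IL-12, against 7.59 and 7.15 TPM with TGFb+IL-6. Without TGFb+IL-6 replicate 1 or IL-12 replicate 2, 4 of the list rose, and without TGFb+IL-6 replicate 2 or IL-12 replicate 3, 3 fell.

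Of 21 tested genes of the IL-6 receptor, STAT factors and their feedback, 5 rose and 2 fell (3 and 5 with median-ratio scaling). Their median log2 change was 0.26. Among all genes 19.1% rose and 5.7% fell (9.32% and 10.7% with that scaling). Stat5a, a transducer of IL-2, was at 105 and 115 TPM with IL-12, against 27.9 and 21.6 TPM with TGFb+IL-6, and rose by 2.12 ± 0.26. Socs2, a feedback inhibitor, was at 25.2 and 33.1 TPM with IL-12, against 99.6 and 95.2 TPM with TGFb+IL-6, a log2 change of -1.72 ± 0.27, and Il6ra was the other that fell. Socs3, the classic feedback gene of STAT3, was at 12 and 15.2 TPM with IL-12, against 25.4 and 16 TPM with TGFb+IL-6 (adjusted p = 0.208, and 0.0103 with median-ratio scaling). Of 26 tested BATF, AP-1, NFAT and IRF genes, 7 rose and 1 fell (5 and 1 with median-ratio scaling), with a median log2 change of 0.68. Besides Irf8, Irf1 and Batf, the nuclear receptor gene Nr4a2 rose by 2.30 ± 0.42 and Batf3 by 1.50 ± 0.23. Batf3 was at 100.3 and 115 TPM with IL-12, against 33.2 and 42.1 TPM with TGFb+IL-6. Relb, the one that fell, was at 5.83 and 11.6 TPM with IL-12, against 23.9 and 23.1 TPM with TGFb+IL-6, a call that held in 1 of the 4 fits with a library left out, the one without IL-12 replicate 3.

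Genes of retinoid transport and sensing went both ways. Of 10 tested genes in a list of retinoid, vitamin D and aryl hydrocarbon genes, 3 rose and 3 fell, with a median log2 change of -0.21. Crabp2, a carrier that delivers retinoic acid to its nuclear receptor, was at 607 and 524 TPM with IL-12, against 37.7 and 51.1 TPM with TGFb+IL-6, a log2 change of 3.65 ± 0.23 (adjusted p = 1.38e-08). Stra6, a membrane receptor for retinol uptake, was at 40.7 and 49.9 TPM with IL-12, against 3.85 and 4.23 TPM with TGFb+IL-6, a log2 change of 3.19 ± 0.43 (adjusted p = 7.40e-05). Rxra also rose, with 1.63 and 1.18 TPM with IL-12, against 0.23 and 0.09 TPM with TGFb+IL-6, and lost its call without IL-12 replicate 2 or TGFb+IL-6 replicate 2. The retinoic acid receptor gene Rara was at 0.71 and 0.74 TPM with IL-12, against 4.2 and 3.87 TPM with TGFb+IL-6, a log2 change of -1.54 ± 0.35. The retinol-binding protein gene Rbp4 also fell, at 0 TPM in both IL-12 libraries, against 1.53 and 2.28 TPM with TGFb+IL-6.

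Matrix, serpin and cytoskeletal genes gave 9 rises and 6 falls of 20 tested (7 and 9 with median-ratio scaling), with a median log2 change of -0.20. Timp1, Vim and Lgals1, which fell, were abundant in all 4 libraries. Timp1, an inhibitor of matrix metalloproteases, was at 256 and 509.9 TPM with IL-12, against 2778 and 3826 TPM with TGFb+IL-6, a log2 change of -3.17 ± 0.33 (adjusted p = 4.68e-06). Vim, the intermediate filament vimentin, was at 389.5 and 340.1 TPM with IL-12, against 1679 and 1557 TPM with TGFb+IL-6, a log2 change of -2.15 ± 0.22. Lgals1, which encodes galectin-1, was at 2165 and 2309 TPM with IL-12, against 5818 and 5786 TPM with TGFb+IL-6, a log2 change of -1.38 ± 0.14. Timp1 and Lgals1 were the most abundant of the 3 in both TGFb+IL-6 libraries.

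Several of the largest changes lay outside these lists. Penk, which encodes the precursor of the enkephalin opioid peptides, was among the most abundant transcripts of IL-12 cells, at 4629 and 4250 TPM with IL-12, against 11.4 and 9.63 TPM with TGFb+IL-6, a log2 change of 8.59 ± 0.32 (adjusted p = 2.47e-11). Plac8, a small cysteine-rich protein, was at 354 and 214 TPM with IL-12, against 2.98 and 4.18 TPM with TGFb+IL-6, a log2 change of 5.93 ± 0.36, and the T cell membrane protein gene Ms4a4b at 138 and 80.3 TPM with IL-12, against 1.06 and 0.39 TPM with TGFb+IL-6, a log2 change of 5.98 ± 0.42. Among those that fell, Aqp3, a water and glycerol channel, was at 0.46 and 1.86 TPM with IL-12, against 144 and 125 TPM with TGFb+IL-6, a log2 change of -6.04 ± 0.36. Ltb4r1, the receptor of leukotriene B4, was at 0 and 1.83 TPM with IL-12, against 112 and 125 TPM with TGFb+IL-6, a log2 change of -6.15 ± 0.49. Nupr1, a stress-induced nuclear protein, was at 1.73 and 0 TPM with IL-12, against 44 and 53.4 TPM with TGFb+IL-6, and Gap43, best known from growing axons, at 0 and 1.31 TPM with IL-12, against 31.7 and 41.7 TPM with TGFb+IL-6. Gmfg, an actin regulator of blood cells, was at 2.8 and 4.67 TPM with IL-12, against 97.5 and 86 TPM with TGFb+IL-6, a log2 change of -4.32 ± 0.31. Ctla2b, a cathepsin inhibitor-like gene, was at 14.6 and 15.8 TPM with IL-12, against 274 and 335 TPM with TGFb+IL-6. Its close copy Ctla2a was at 135 and 117 TPM with IL-12, against 1534 and 1657 TPM with TGFb+IL-6, and reads may have been divided between both. The largest fitted fall of all was at a row labelled TRNQ, a mitochondrial tRNA in RefSeq that was singled out after its values were seen, with 0 TPM in both IL-12 libraries, against 2828 and 2503 TPM with TGFb+IL-6. It was at 3642 TPM in IL-12 GFPneg replicate 1, the library left out, so a value of 0 did not hold in every IL-12 library. TPM of so short a feature can be an unreliable estimate, and this was not tested. The histone gene Hist1h2ah, at 0 TPM in both IL-12 libraries, against 11.8 and 31.2 TPM with TGFb+IL-6, passed the test (adjusted p = 0.0268) but was lost in all 4 fits with a library left out.

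Most proliferation genes did not pass the test, and the number that fell depended on scaling. Of 33 tested, 9 fell and 3 rose, with a median log2 change of -0.55, and with median-ratio scaling 22 fell and 3 rose. Their summed level was 4316 and 4685 TPM with IL-12 and 4471 and 4395 TPM with TGFb+IL-6, groups that overlap. That sum includes the 3 that rose, which were abundant with IL-12, so it does not show the level of the other members. Without TGFb+IL-6 replicate 1, 3 fell, without IL-12 replicate 2, 4, without TGFb+IL-6 replicate 2, 5, and without IL-12 replicate 3, 6. The replication helicase gene Mcm6 was at 61.9 and 66.6 TPM with IL-12, against 168 and 142 TPM with TGFb+IL-6, a log2 change of -1.25 ± 0.23. Stmn1, a regulator of microtubules, was at 92.5 and 86.6 TPM with IL-12, against 226 and 215 TPM with TGFb+IL-6, a log2 change of -1.29 ± 0.23, and the mitotic survivin gene Birc5 at 66.1 and 68.2 TPM with IL-12, against 133 and 152 TPM with TGFb+IL-6, a log2 change of -1.07 ± 0.22. Mki67 was low, at 2.49 and 1.46 TPM with IL-12, against 5.73 and 1.86 TPM with TGFb+IL-6 (adjusted p = 0.273). The 3 that rose, the cyclin genes Ccnd2 and Ccnd3 and the cell cycle inhibitor gene Cdkn1a, were called in all of these fits. Ccnd2 was at 490.2 and 446 TPM with IL-12, against 146 and 152 TPM with TGFb+IL-6, and Cdkn1a at 990.1 and 1247 TPM with IL-12, against 421 and 482 TPM with TGFb+IL-6.

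Metabolic genes had medians near or below that of all genes. For the counts that follow, 19.1% of all genes rose and 5.7% fell (9.32% and 10.7% with median-ratio scaling). Of 25 tested glycolysis and hypoxia genes, 5 rose and 3 fell (1 and 6 with median-ratio scaling), with a median log2 change of 0.09. Hk2, a hexokinase, was at 29.7 and 30.6 TPM with IL-12, against 6.53 and 6.29 TPM with TGFb+IL-6, a log2 change of 2.07 ± 0.25. The hypoxia-response genes Egln3, at 13.5 and 17.8 TPM with IL-12, against 75 and 78.9 TPM with TGFb+IL-6, and Bnip3, at 16.8 and 18.2 TPM with IL-12, against 52.1 and 63.5 TPM with TGFb+IL-6, had log2 changes of -2.24 ± 0.28 and -1.66 ± 0.24, and the aldolase gene Aldoc was the other that fell. The rises numbered 1 without IL-12 replicate 2, 1 without IL-12 replicate 3 and 2 without TGFb+IL-6 replicate 2. Of 28 tested cholesterol and fatty acid genes, 1 rose and 3 fell (0 and 8 with median-ratio scaling), with a median log2 change of 0.11. The 1 that rose was Elovl6, called in 1 of the 4 fits with a library left out, the one without IL-12 replicate 2. Fdps, a prenyl diphosphate synthase, was at 131 and 185 TPM with IL-12, against 300.1 and 347 TPM with TGFb+IL-6, a log2 change of -1.04 ± 0.18, and Mvd and Scd1 also fell. Scd1 lost its call without TGFb+IL-6 replicate 1 or IL-12 replicate 3. Of 30 tested oxidative phosphorylation genes, 8 rose and 0 fell (2 and 0 with median-ratio scaling), with a median log2 change of 0.17. Ndufa4, a subunit of the respiratory chain, was at 658 and 704 TPM with IL-12, against 215 and 198 TPM with TGFb+IL-6, a log2 change of 1.72 ± 0.21, and Sdhd rose by 1.46 ± 0.32, a call lost without TGFb+IL-6 replicate 2. There were 2 rises without TGFb+IL-6 replicate 2 and 4 without IL-12 replicate 3. Of 14 tested heat shock genes, 3 rose and 1 fell (2 and 2 with median-ratio scaling), with a median log2 change of 0.56. The 3 were Hspd1, Hsp90aa1 and Hspe1, of which Hspe1 lost its call with that scaling and was called in 1 of the 4 fits with a library left out, the one without TGFb+IL-6 replicate 2. Hspa1a was the 1 that fell, a call lost in all 4 fits with a library left out. Of 12 tested nutrient transporter and metallothionein genes, 2 rose and 0 fell (0 and 2 with median-ratio scaling), with a median log2 change of 0.35. The 2 were Mt2, lost in all 4 fits with a library left out, and Slc38a2, called in 1 of them, the one without TGFb+IL-6 replicate 1.

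Of 82 tested ribosomal protein genes, 44 fell and 2 rose (48 and 1 with median-ratio scaling), with a median log2 change of -0.45. These are the genes whose summed share is given above. Of 14 CD4 T cell markers, 5 rose and 2 fell (2 and 4 with median-ratio scaling), with a median log2 change of 0.60. Cd4 itself rose by 0.89 ± 0.24 (adjusted p = 0.0139) and lost its call with median-ratio scaling (adjusted p = 0.13). Cd247, the zeta chain of the T cell receptor complex, was at 151 and 126 TPM with IL-12, against 25 and 22.6 TPM with TGFb+IL-6, a log2 change of 2.49 ± 0.21, and the costimulatory receptor gene Cd28 at 95.9 and 95.5 TPM with IL-12, against 31 and 20.1 TPM with TGFb+IL-6, a log2 change of 1.90 ± 0.33. The 2 that fell were Cd2, at 538 and 818 TPM with IL-12, against 1056 and 1107 TPM with TGFb+IL-6, and Thy1, at 19.9 and 30.7 TPM with IL-12, against 46.9 and 45.1 TPM with TGFb+IL-6, and both were called in 1 of the 4 fits with a library left out, the one without IL-12 replicate 3.

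The genes lower after IL-12 were set beside a further culture, IL-1b (20 ng/ml) with IL-6 (25 ng/ml) and IL-23 (20 ng/ml), which also holds IL-6 but no added TGF-b. Its comparison with TGFb+IL-6 uses the same TGFb+IL-6 libraries as above, so values are only placed side by side. Among all genes, 12% were higher and 5.84% lower in IL-1b+IL-6+IL-23 GFPneg than in TGFb+IL-6 GFPneg cells. Some Th17 genes were high in both IL-6 cultures. Ccr6 was at 33.3, 29.2 and 49.9 TPM in the IL-1b+IL-6+IL-23 libraries, against 30.3 and 24.6 TPM with TGFb+IL-6, and was not called (adjusted p = 0.366). Il17f was at 1775, 2233 and 1988 TPM with IL-1b+IL-6+IL-23, a log2 change of -1.04 ± 0.33 (adjusted p = 0.0395). Il17a was at 81.6, 89.8 and 142 TPM there, a log2 change of -1.23 ± 0.36 (adjusted p = 0.0275). Both IL-17 genes were thus lower in that culture than with TGFb+IL-6, and far above their level after IL-12. Others were high with TGFb+IL-6 and lower in both other cultures. Ccl20 was at 0, 1.41 and 3.51 TPM with IL-1b+IL-6+IL-23, a log2 change of -8.72 ± 0.69 (adjusted p = 2.58e-07). Il9 was at 0, 1.25 and 21.9 TPM, Pdpn at 0, 0.52 and 0.96 TPM and Aqp3 at 0.51, 0 and 0.01 TPM in the same 3 libraries, with log2 changes of -8.62 ± 0.94, -6.91 ± 0.49 and -6.87 ± 0.33. Maf was at 0.24, 0.37 and 0.63 TPM and Nt5e at 1.89, 1.25 and 2.9 TPM, with log2 changes of -2.74 ± 0.37 and -2.93 ± 0.40. The adjusted p of these 5 lay between 1.41e-09 (Aqp3) and 6.22e-05 (Nt5e). Some genes high after IL-12 were also high in this IL-6 culture. Serpine2 was at 388, 253 and 381 TPM there, Penk at 965, 528 and 682 TPM, and Ccl5 at 180.4, 167 and 175 TPM. Ifng, in contrast, was at 0, 0 and 0.9 TPM and Tbx21 at 1.02, 0.36 and 3.38 TPM.

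**Figure D4:**
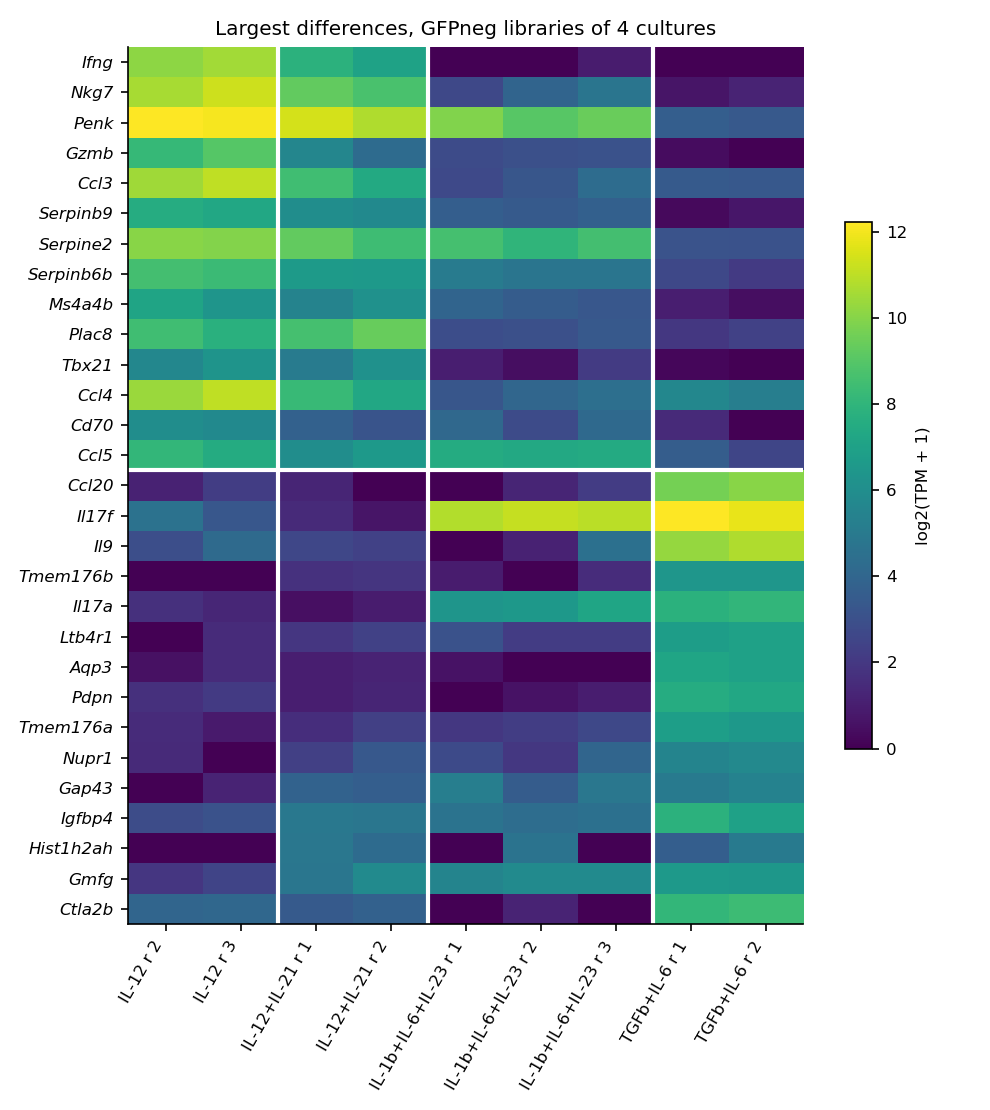
Colour gives log2(TPM + 1) of the named genes among the largest rises (top) and largest falls (bottom), 1 column per GFPneg library of 4 cultures. Ifng, Nkg7 and Tbx21 are bright in the IL-12 and IL-12+IL-21 columns, Il17f and Il17a in both IL-6 cultures, and Ccl20, Il9, Aqp3 and Pdpn in the TGFb+IL-6 columns. Rows were chosen by the comparison of the first and last columns.

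The same genes were followed in a comparison that shares no library with the first, IL-12+IL-21 GFPneg (IL-12 and IL-21 at 20 ng/ml each, replicates 1 and 2) minus IL-1b+IL-6+IL-23 GFPneg (3 replicates). Both comparisons set an IL-12 culture against an IL-6 culture, and both draw on one estimate of the spread. In the second, 2.46% of all genes were higher and 1.4% lower in the IL-12+IL-21 cells. Of the 785 genes higher under both scalings, 88 (11.2%) were also called higher there, which is 42.5% of its 207 higher calls, and 28 (3.57%) were called lower. Of the 480 lower genes, 30 (6.25%) were also called lower, 25.4% of its 118, and 33 (6.88%) were called higher. Signs matched for 47.4% and 45.2% of the 785 and the 480, while 49.3% of all genes were above 0 and 50.5% below it in the second comparison. Shares of matching sign were thus close to the background. The shares called in the same direction were above the background of that direction, and so were the shares called in the opposite one. Among the 480 lower genes, the opposite calls were the more numerous.

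Ifng was at 231 and 131 TPM with IL-12+IL-21, against 0, 0 and 0.9 TPM with IL-1b+IL-6+IL-23, a log2 change of 7.14 ± 0.34 (adjusted p = 1.66e-09). Plac8 differed by 5.90 ± 0.32, Nkg7 by 5.22 ± 0.46, Tbx21 by 4.43 ± 0.53, Crabp2 by 4.14 ± 0.21 and Irf8 by 3.87 ± 0.40. Among those lower in both, Il17f differed by -9.91 ± 0.33, Il17a by -5.96 ± 0.36 and Ccr6 by -2.71 ± 0.29. Il1rn differed by -2.76 ± 0.30 and Ifngr2 by -1.19 ± 0.29. Some genes went the opposite way. Batf, higher after IL-12 in the first comparison, differed by -2.48 ± 0.18 in the second, Stat5a by -1.65 ± 0.24 and Ccl5 by -1.19 ± 0.32. Ctla2b, lower after IL-12 in the first, differed by 3.22 ± 0.42, Lta by 2.91 ± 0.24 and Ltb by 1.94 ± 0.31. Proliferation genes were among these, with Stmn1 at 1.27 ± 0.21, Mcm6 at 0.99 ± 0.21 and Birc5 at 0.77 ± 0.20. Ccl20, Il9, Pdpn and Aqp3, all far below their TGFb+IL-6 level in both of these cultures, were not called, with log2 changes of -0.52, 0.59, 0.63 and 0.92.

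**Figure D5:**
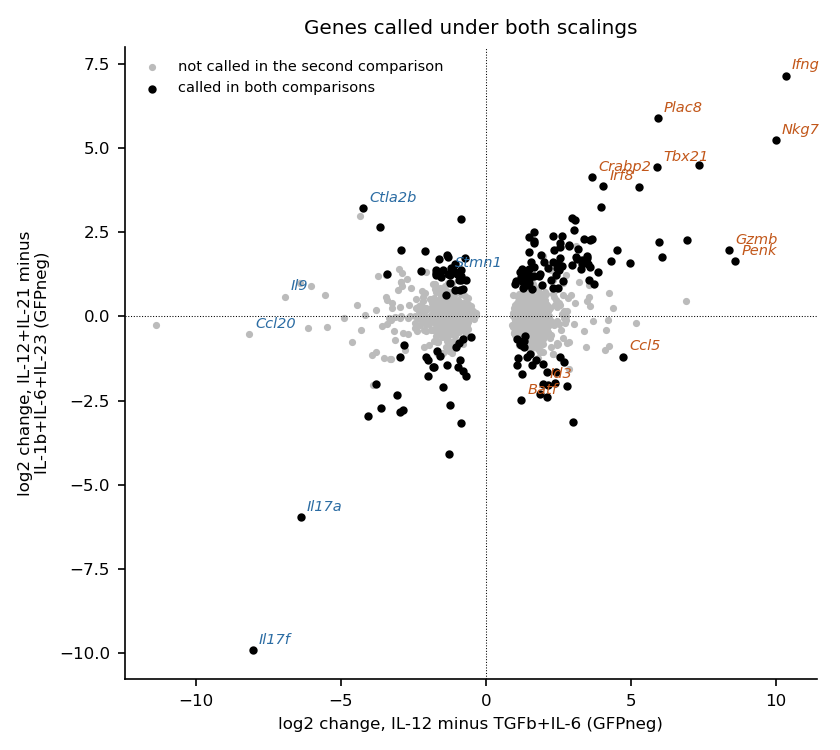
Each point is a gene called under both scalings, by its log2 change in the first comparison (horizontal) and in IL-12+IL-21 minus IL-1b+IL-6+IL-23 GFPneg cells (vertical). Black points passed the test in both. Ifng lies at the upper right and Il17f at the lower left, while Ctla2b and Stmn1 lie at the upper left.

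Libraries outside the comparison were placed against the midpoint of both group means, gene by gene. In TGFb+IL-6 GFPpos replicate 1, which had 8715 genes at 1 TPM or more and was sorted from the same kind of culture by reporter signal, 429 of the 480 lower genes (89.4%) and 535 of the 785 higher genes (68.2%) lay on the TGFb+IL-6 side. The other libraries of that culture had 5608 or fewer genes at 1 TPM or more and held few of the 480 on that side, 31.9% in GFPpos replicate 2, 11.5% in GFPpos replicate 3 and 5.42% in GFPneg replicate 3. A gene listed at 0 falls on the low side in any library. IL-12 GFPneg replicate 1, the library left out, had 87.9% of the lower genes but 8.41% of the higher genes on the IL-12 side. In it 59% of TPM was ribosomal protein and 12.5% was Rpl41 alone. Abundant IL-12 genes were uneven in it. Ifng was at 78.8 TPM, Nkg7 at 742 TPM, Penk at 872 TPM and Ccl4 at 1811 TPM, while Serpine2 was at 11.6 TPM, Igtp at 12.8 TPM, Gzmb at 12.1 TPM, Serpinb6b at 2.34 TPM and Tbx21 at 1.67 TPM. High values of IL-12 genes were not limited to libraries labelled IL-12, since TGFb+IL-6 GFPpos replicate 3, with 1157 genes at 1 TPM or more, had Ifng at 989 TPM, Nkg7 at 539 TPM, Penk at 2477 TPM and Tbx21 at 142 TPM. Gzmb, Ccl3 and Ccl4 were listed at 0 TPM in TGFb+IL-6 GFPpos replicate 3, and 18.6% of the 785 higher genes lay on the IL-12 side. TGFb+IL-6 GFPneg replicate 3, described at the start, also had high Ifng, but Nkg7, Penk and Tbx21 at 0 TPM. In it 2.68% of the 785 lay on the IL-12 side. Each of these libraries thus goes against its culture label in some IL-12 genes only.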

How the data were processed

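CD4 T cells were profiled by SMART-Seq2 in 21 libraries, 7 groups of 3. The deposited values are TPM per gene. GRCm38, RSEM 1.2.31, Bowtie2 2.2.9 and Trimmomatic 0.32 are named in the labels, per the submitters' processing notes, and the annotation and strand setting are not given in the sources used here. TPM keep no depth, so the depth is unknown.

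The deposited TPM were tested with limma 3.58.1 (run in R 4.3.3). The model held a mean per group for log2(TPM + 1), an intensity trend and Benjamini-Hochberg adjustment over 8420 genes. Log2 changes are on that scale and understate changes of low genes. The fit took 16 libraries with at least 7000 genes at 1 TPM or more, all groups sharing one spread. Symbols matched GENCODE M21 for 22434 rows and RefSeq for 928.

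The comparison, its members and the gene lists were chosen with earlier results of these data known. Genes were named by size (15 largest rises and falls among those past the test, with a change of 1 or more on the log2 scale, groups that did not overlap and a mean of 5 TPM), by the smallest adjusted p of each list (up to 6), and from a fixed set. Some genes are not reported here. Another 32 genes complete a count or a contrast and were chosen after their values were seen. Alternatives covered scaling, pseudocount, filter, libraries, weights and a replicate block. The test was checked on simulated data.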

Additional observations from a re-analysis of the deposited data

How the results depend on the processing

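Counts of higher and lower genes moved most with scaling and with the libraries in the fit. Quantile normalization gave 858 higher and 864 lower genes, median-ratio scaling 785 and 901, and leaving out ribosomal protein genes 993 higher and 603 lower. With all 21 libraries there were 40 and 16, and with 18 libraries 37 and 104. Both of these settings bring back libraries with few detected genes. With any single library left out there were 695 to 1120 higher and 273 to 368 lower genes. Pseudocounts of 0.1 and 5, both filters, array weights, no trend, robust empirical Bayes and only the 4 libraries stayed within 1.5 times of 1609 and 480.

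Some named genes that were not called changed sign with median-ratio scaling, such as Tcf7 (log2 change 0.18 to -0.23) and Stat3 (0.27 to -0.16). Signs of named genes called on the TPM as deposited turned only with the excluded libraries back in. With all 21 libraries the log2 changes were 1.18 for Birc5, 1.21 for Capg, -0.05 for Ccnd2, 1.36 for Cd2, 0.443 for Fdps, 0.199 for Id2, 0.144 for Il4ra, 3.17 for Lgals1, 0.119 for Mvd, 0.481 for Selplg, 0.267 for Stmn1, 1.3 for Thy1 and 0.419 for Timp1. With 18 libraries they were -0.228 for Ccnd3, -0.213 for Ccr7, -0.112 for Cd4, -0.361 for H2-K1, -0.718 for Hspd1, -0.349 for Sdhd and -0.144 for Slc38a2. None of these passed the test there, and the cause was not tested.

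Of 148 called genes in the text, 113 were called in all 4 fits with a library left out, and 10 lost the call with median-ratio scaling. With the replicate number as a block, 1500 genes were higher and 504 lower. Deviations of same-numbered libraries correlated over 0.1 in 10 of 31 pairs (median 0.067), against 2 of 62 differently numbered pairs (median -0.0242). Not every same-numbered pair passed 0.1, and the numbers were not treated as pairing. Depth cannot be read from TPM, so a gene listed at 0 is not shown to be absent.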
